A study of Zea mays with 2 samples.

Results

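The stretch of maize chromosome 3 from 15 to 30 Mb was described here, in endosperm of the opaque2 mutant and of wild type at 15 days after pollination. Its members were all loci on chromosome 3 whose start, as deposited, lay from 15 Mb to below 30 Mb and whose level was above 0 in either genotype. There were 329 such loci of 44119 in all, at 290 distinct positions. The stretch was chosen by its high share of loci whose levels differed between the genotypes in these same 2 libraries. That share and every ratio below therefore describe the stretch and are no test of it.

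RNA was measured in 1 sample of opaque2 endosperm and 1 of wild type endosperm, both from kernels of the same age. The labels name the genotypes as opaque2 and wild type. The sources used here do not give the opaque2 allele, the inbred background of either line or the number of ears or kernels behind a sample. Triplicates are mentioned in the design text, but their relation to the single value per locus and genotype is not stated. No difference below has a replicate check, and none carries a p-value.

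Endosperm is the starch and protein store of the maize kernel, and zeins are its main storage proteins. The opaque2 gene encodes a bZIP transcription factor of the endosperm, known above all for switching on zein genes. Kernels of the mutant have a soft, opaque endosperm that is poorer in zeins and richer in lysine. Levels are in FPKM, which scales fragments to transcript length and library size, so they can be set side by side between loci. In a tissue sample, a lower level from fewer cells of a type and one from less RNA per cell cannot be told apart.

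The loci are given by position alone, in a genome build not given in the sources used here. None of the 329 matched a gene of the reference table by start and end, that is 0, so they are named by position and no gene name, exon or role is attached to any of them. The defining markers of endosperm were not checked for the same reason. Depth is unknown, as FPKM values carry no counts, and a value of exactly 0 can be a failed estimate. The summed levels of all loci were 2138613 FPKM in opaque2 against 2137410 FPKM in wild type, and the median log2 ratio of all loci of 5 FPKM or more was −0.04.

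Most loci of the stretch had low levels. The median was 1.05 FPKM in opaque2 against 0.733 FPKM in wild type, against 2.15 and 2.29 FPKM in the flanks at 0 to 15 Mb and 30 to 45 Mb counted as one. Of the 329 loci, 98 reached 5 FPKM in the higher library (29.8%), against 293 of 748 in the flanks (39.2%). Another 84 had 1 to 5 FPKM there, 110 had 0.1 to 1 FPKM and 37 were lower still. The 98 loci, at 87 positions, held 94.8% of the summed level of the stretch in opaque2 and 94.3% in wild type. Among loci past this floor, levels were like those of the flanks, with medians of 14.7 FPKM in opaque2 against 12.4 FPKM in wild type, against 12.4 and 11.9 FPKM. Loci past the floor had a median span of 2902 bp, against 4012 bp in the flanks.

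A locus was counted as changed when it reached 5 FPKM in the higher library and its log2 ratio of opaque2 over wild type, computed on FPKM + 1, was 1 or more in size, which is a 2-fold difference. In the stretch 30 of the 98 loci changed (30.6%), 20 of them higher in opaque2 and 10 lower. Over all 15833 loci past the floor 7.91% changed, 4.07% higher and 3.84% lower. In the flanks 23 of 293 loci changed (7.85%), with 10 higher and 13 lower. Since the stretch was selected on this share, nothing is read from its distance to those values. Cutting the rest of chromosome 3 up to 225 Mb into 14 further stretches of 15 Mb gave shares from 3.14% to 10.3%.

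**Figure D1:**
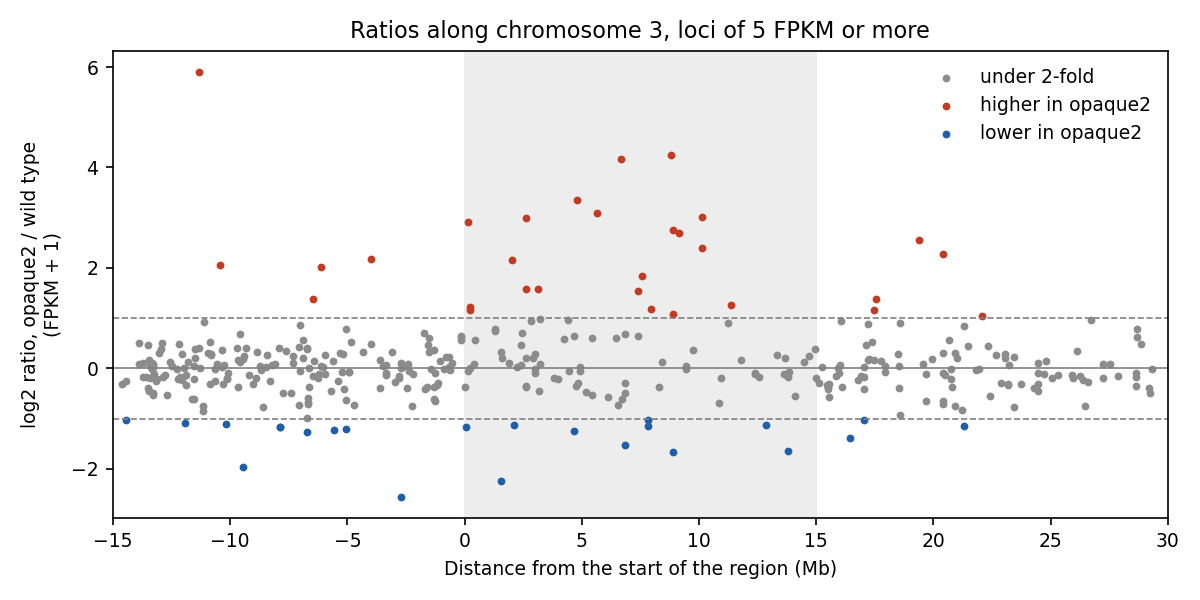
Each point is 1 locus of 5 FPKM or more, by its distance from the start of the stretch in Mb and its log2 ratio of opaque2 over wild type on FPKM + 1, with the stretch shaded and dashed lines at a 2-fold difference. The shaded part holds 20 higher and 10 lower loci, and the 2 flanks together 10 higher and 13 lower.

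The ratios were widely spread below the 2-fold line as well. The median size of the log2 ratio, whatever its direction, was 0.54 in the stretch and 0.28 in the flanks, and it was 0.23 over all loci past the floor. Within 1.5-fold lay 52 of the 98 loci (53.1%), against 79.2% in the flanks and 82.6% of all loci. Thus 46 loci (46.9%) lay at or beyond 1.5-fold, where the share over all loci was 17.4%. Beyond 4-fold there were 12 loci (12.2%), 11 of them higher in opaque2, where the share over all loci was 3.23%. Higher loci also made up 6 of the 7 beyond 4-fold in the flanks and 322 of the 511 over all loci. The 11 include 7 loci under 1 FPKM in wild type, whose ratios depend on the pseudocount. The signed median was 0.10, with quartiles at −0.29 and 0.77, so the upper quartile stood farther from 0 than the lower one.

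**Figure D2:**
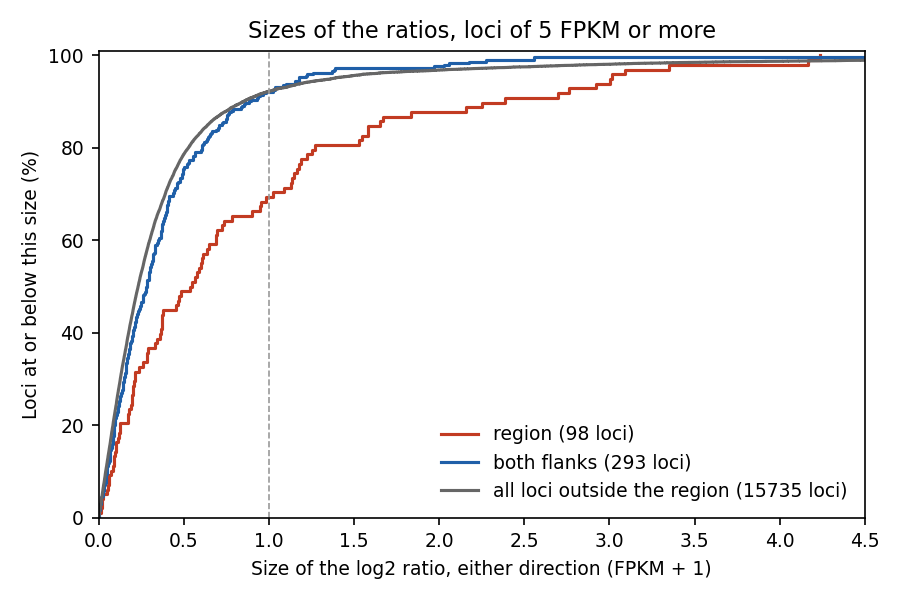
The curves give, for each size of the log2 ratio on FPKM + 1 in either direction, the percent of loci of 5 FPKM or more at or below it. The curve of the stretch lies under both others at a size of 1, with a median of 0.54 against 0.28 in the flanks and 0.23 in all loci outside the stretch.

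The share of changed loci was highest in the middle of the stretch and lower, unevenly, toward its ends. In windows of 2.5 Mb, 7 of 21 loci changed at 15 to 17.5 Mb (33.3%), then 5 of 26 at 17.5 to 20 Mb (19.2%) and 4 of 15 at 20 to 22.5 Mb (26.7%). The count was 9 of 14 at 22.5 to 25 Mb (64.3%), then 3 of 9 at 25 to 27.5 Mb (33.3%). At 27.5 to 30 Mb it was 15.4% (2 of 13 loci), close to the 11.1% of the next window outside, at 30 to 32.5 Mb (3 of 27 loci). On the other side the last window before 15 Mb had 0 of 29 loci changed. Changed loci were not confined to a few spots, since 14 of the 15 windows of 1 Mb held at least 1, and no window held more than 5.

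**Figure D3:**
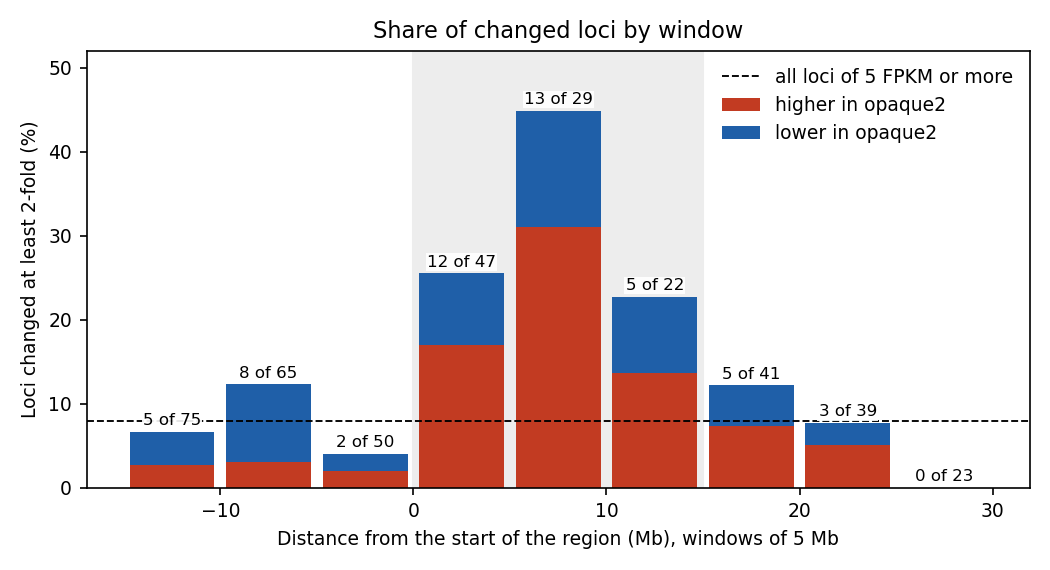
Bars give the percent of loci of 5 FPKM or more that were at least 2-fold higher or lower in opaque2 in windows of 5 Mb, by distance from the start of the stretch in Mb, with the counts above and the share over all loci, 7.91%, as a dashed line. The 3 shaded windows hold 12 of 47, 13 of 29 and 5 of 22 loci.

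The 2 loci next to the start that reached 5 FPKM, at 14840436 to 14844319 and 14848566 to 14859935, lay outside the stretch with log2 ratios of 0.65 and 0.61. The first locus inside, at 15040001 to 15047905, had 12.3 FPKM in opaque2 against 16.2 FPKM in wild type (log2 ratio −0.37). The last inside, at 29977276 to 29979516, had 5.73 and 6.70 FPKM (−0.19), and the next outside, at 30136052 to 30142993, had 12.4 and 15.4 FPKM (−0.30). At the floor, the locus at 25133830 to 25134260 was just inside with 5.10 FPKM in opaque2, and one at 17433697 to 17435571 was just outside with 4.81 FPKM. At the 2-fold line, a locus at 22814532 to 22820273 was just inside (log2 ratio −1.02) and one at 18219856 to 18221974 just outside, with 14.5 FPKM in opaque2 against 6.84 FPKM in wild type (0.98).

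The 5 loci of highest mean level included both changed loci and others. The highest of the stretch, at 17823962 to 17828243, had 740 FPKM in opaque2 against 383 FPKM in wild type. Its log2 ratio of 0.95 fell just short of the 2-fold line. Next came a locus at 22387754 to 22389768, with 483 FPKM in opaque2 against 164 FPKM in wild type, 2.94-fold higher (log2 ratio 1.55). A short locus of 110 bp at 20427220 to 20427329 had 260.3 FPKM in opaque2 against 379 FPKM in wild type (−0.54). At 18802974 to 18803280 the levels were 235 and 268 FPKM (−0.19). The fifth, at 16570818 to 16572010, had 61.0 FPKM in opaque2 against 294 FPKM in wild type, a 4.82-fold lower level (log2 ratio −2.25). It was the lowest ratio of the stretch past the floor.

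**Figure D4:**
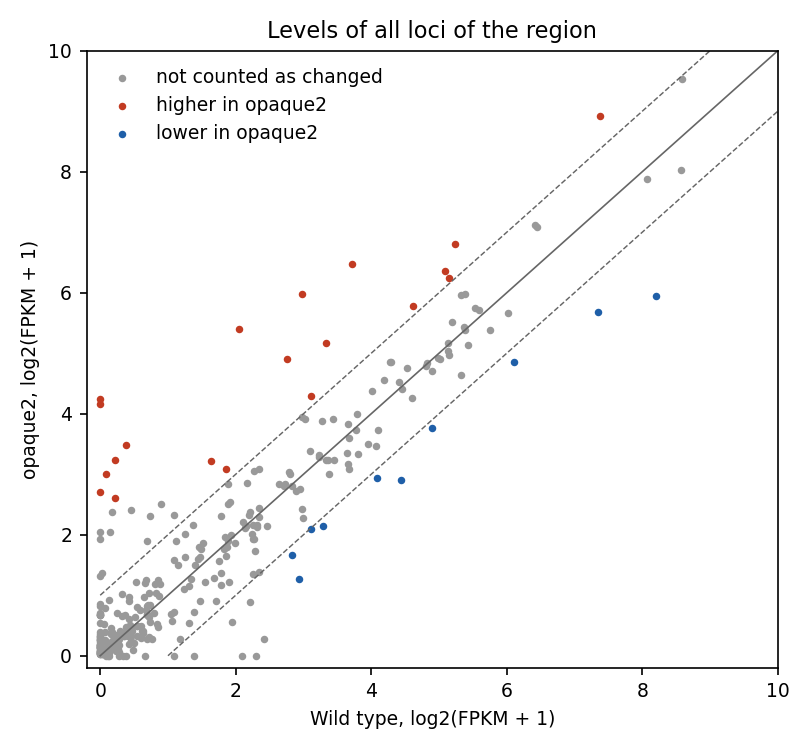
Each point is 1 of the 329 loci, with its level in wild type on the x axis and in opaque2 on the y axis, both as log2(FPKM + 1), and the dashed lines mark a 2-fold difference. Levels of the higher loci in opaque2 range from 5.10 to 483 FPKM, with 7 loci under 1 FPKM in wild type.

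Among the 20 loci that were higher in opaque2, 7 were under 1 FPKM in wild type, and 3 of those were listed at 0. Over all loci, 258 of the 644 higher ones were under 1 FPKM in wild type, and 210 were listed at 0. In the flanks 2 of the 10 higher loci were under 1 FPKM in wild type, and 1 was listed at 0. A locus at 15160974 to 15162943 had 7.05 FPKM in opaque2 against 0.0632 FPKM in wild type. At 20641924 to 20642867 the levels were 10.1 and 0.307 FPKM. At 25122742 to 25124382 they were 8.44 and 0.166 FPKM. These loci were present at a moderate level in one genotype and close to the lower limit in the other. Their log2 ratios of 2.92, 3.09 and 3.02 therefore depend on the pseudocount. At a pseudocount of 0.1 they were 5.45, 4.65 and 5.01, and at 5 they were 1.25, 1.51 and 1.38. The 3 loci listed at 0 in wild type had 17.0 FPKM in opaque2 at 21658907 to 21659044, 17.9 FPKM at 23825850 to 23825992 and 5.50 FPKM at 24149737 to 24150406. They span 138, 143 and 670 bp, and the first and second are so short that a small error in length moves the FPKM strongly. No fold is given for them.

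The other 13 higher loci were above 1 FPKM in both genotypes. The largest difference among them was at 19783986 to 19800783, with 41.3 FPKM in opaque2 against 3.16 FPKM in wild type, 13.1-fold higher (log2 ratio 3.35). At 17605685 to 17606666, 2 loci share 1 position of 982 bp, and both were higher, with 62.4 against 6.91 FPKM (9.02-fold) and 111 against 36.5 FPKM (3.05-fold). A locus at 17033772 to 17034278 had 29.1 FPKM in opaque2 against 5.75 FPKM in wild type (2.16). One at 22570388 to 22571485 had 34.8 and 9.05 FPKM (1.83), and one at 18154649 to 18157120 had 8.28 and 2.10 FPKM (1.58). Smaller differences were seen at other loci. The locus at 26352719 to 26356057 had 80.7 FPKM in opaque2 against 32.9 FPKM in wild type (1.27), and that at 23896367 to 23898018 had 74.8 and 34.6 FPKM (1.09). A locus at 22956305 to 22957389 had 18.6 FPKM in opaque2 against 7.60 FPKM in wild type (1.19). At 15228729 to 15235307, 2 of the 3 loci at 1 position were higher, with 53.9 against 23.5 FPKM (1.16) and 7.48 against 2.63 FPKM (1.22).

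The 10 lower loci stayed measurable in opaque2, and none was listed at 0 or under 1 FPKM there. Over all loci, 109 of the 608 lower ones were under 1 FPKM in opaque2, and 87 were listed at 0. In the flanks 1 of the 13 lower loci was under 1 FPKM in opaque2, and none was listed at 0. Log2 ratios of the 10 lower loci of the stretch ran from −2.25 to −1.02, a narrower range than that of the higher loci, from 1.09 to 4.24. After the locus at 16570818 given above, the lowest ratios at a pseudocount of 1 were at 2 positions. Their rank depends on the pseudocount. One, at 23904351 to 24095931, was a locus with 50.1 FPKM in opaque2 against 161 FPKM in wild type (−1.67). At 28819050 to 28829107 a locus had 1.42 FPKM in opaque2 against 6.61 FPKM in wild type (−1.65, and −2.14 at a pseudocount of 0.1, against −1.69 for the former), while the other locus at that position had 30.5 and 34.6 FPKM (−0.18). A locus at 21846602 to 21852092 had 6.52 FPKM in opaque2 against 20.7 FPKM in wild type (−1.53). At a pseudocount of 5 its ratio was −1.16, and that of the changed locus at 28819050 was −0.85, short of 2-fold. Close to the 2-fold line were loci at 17116070 to 17116597, with 12.6 and 28.9 FPKM (−1.14), at 15061320 to 15062756, with 2.15 and 6.12 FPKM (−1.18), and at 27859686 to 27860602, with 3.44 and 8.73 FPKM (−1.13). Both loci at 22814532 to 22820273 were lower, with 3.25 against 7.64 FPKM (−1.02) and 6.67 against 16.0 FPKM (−1.15). In 6 of the 10 lower loci both genotypes reached 5 FPKM, as in 10 of the 20 higher loci.

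**Figure D5:**
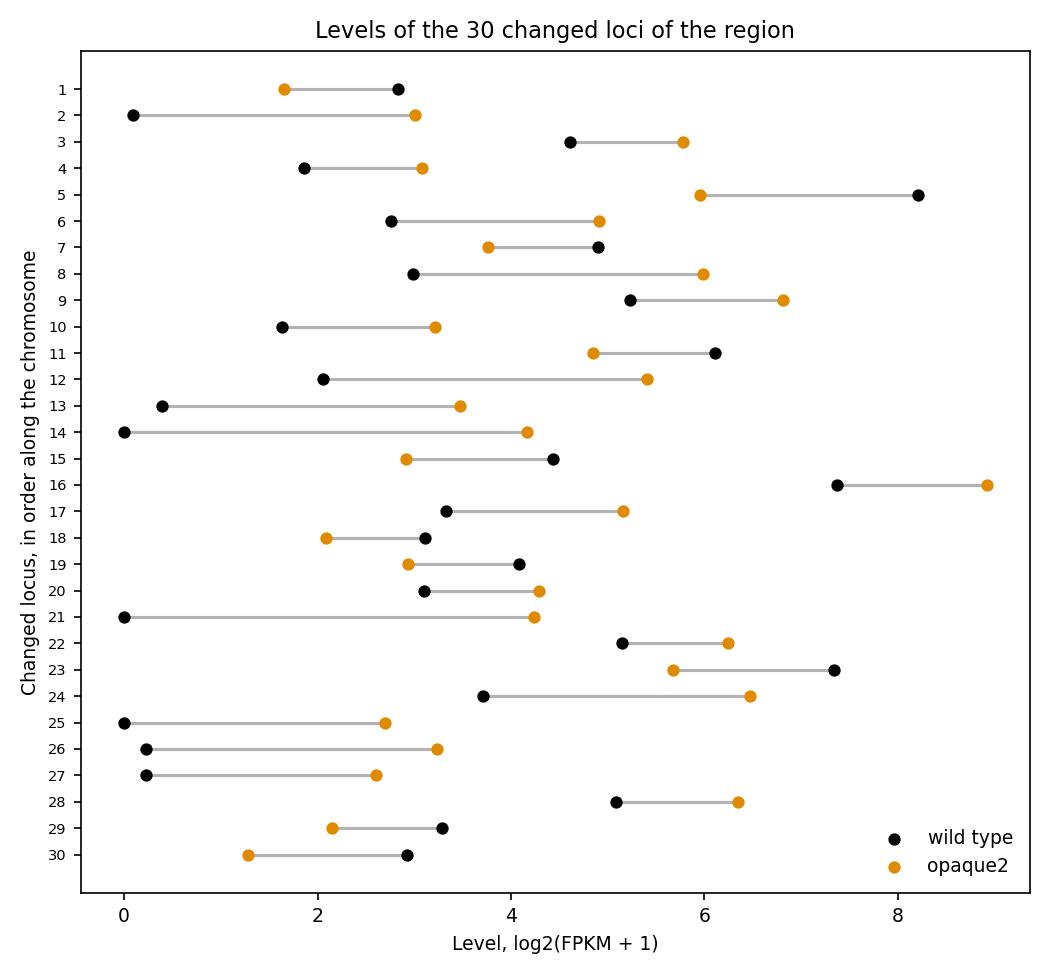
Each line is 1 of the 30 changed loci, in order along the chromosome, and joins its level in wild type (black) to that in opaque2 (orange), as log2(FPKM + 1). In 20 lines opaque2 is to the right and in 10 to the left, and in 3 lines wild type sits at 0.

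A locus past the floor in 1 library alone had more room to differ, so the loci that reached 5 FPKM in both were counted apart. Of 78 such loci in the stretch 16 changed (20.5%), 10 higher and 6 lower, and in the flanks 7 of 243 did (2.88%). Over all loci the share was 3.55%. Changed loci were found at each level. Of the loci with 5 to 10 FPKM in the higher library 10 of 31 changed, of those with 10 to 30 FPKM 8 of 34, of those with 30 to 100 FPKM 8 of 24, and of those with 100 FPKM or more 4 of 9. In the flanks the counts in these 4 classes were 12 of 106, 7 of 124, 3 of 52 and 1 of 11. Over all loci the shares were 7.54%, 5.88%, 7.98% and 21.0%.

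Changed loci were more often short ones. Their median span was 1539 bp, against 3398 bp for the 68 loci that did not change. Of the 19 loci that span under 1000 bp 11 changed (57.9%), of the 31 with 1000 to 3000 bp 9 did (29.0%), and of the 48 longer ones 10 did (20.8%). The same order was seen over all loci, with 29.2%, 8.94% and 3.37%, and in the flanks, with 31.2%, 5.71% and 4.71%. Loci that span under 300 bp were few in the stretch, 3 of 98, and 2 of them changed, where 321 of 626 such loci changed over the whole genome. The spans are those of the deposited positions and not lengths of transcripts, and their part in the ratios was not tested.

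Several changed loci lay next to each other. Loci were taken in order of position, and loci at 1 position in deposited order. Among the 98 loci, there were 6 groups of 2 or more neighbours that all changed, in either direction. Another order at shared positions would alter where some groups begin or end. With 30 of the 98 loci changed, some changed neighbours would arise from that share alone. Such groups were not counted in the flanks or over all loci, so their number is not read as clustering. In 2 of the 6, the group was a pair of overlapping loci at 1 position, and the other 4 ran over several positions. The group with the most loci, at 23825850 to 24150406, held 5 loci at 4 positions, 4 of them higher and 1 lower in opaque2. Their summed level was 236 FPKM in opaque2 against 208 FPKM in wild type (log2 ratio 0.18), so the changes in both directions nearly balanced in the sum. Next in number were 4 loci at 22570388 to 22957389, 2 higher and 2 lower, over a longer span, 387 kb against 325 kb. A changed locus at 22387754 to 22389768 was cut off from these only by its unchanged partner at that position. It would join them in the other order. Taken from 22387754 to 25134260, over 2.75 Mb, 12 of 18 loci changed, 9 higher and 3 lower. Their summed level was 1028 FPKM in opaque2 against 587 FPKM in wild type (log2 ratio 0.81). The limits of that segment were set after its values were seen. The group of neighbours without a change that had the most loci held 9, at 18178883 to 19670484, with log2 ratios from −0.46 to 0.98. It ended at 1 of the 2 loci at 19669523 to 19670484, whose other locus was lower in opaque2 (−1.26). That interval is thus not free of changed loci.

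Within 11.5 kb, 3 neighbouring loci with nothing listed between them shared 1 pattern. They were the locus at 25122742 already given, one at 25128301 to 25131442 with 4.18 FPKM in opaque2 against 0.131 FPKM in wild type, and one at 25133830 to 25134260 with 5.10 and 0.165 FPKM. All 3 were thus present in opaque2 and near 0 in wild type. The middle one missed the floor and is not among the 30 changed loci.

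Positions shared by several loci need separate reading, since overlapping models can divide the same reads among themselves. In the stretch 76 loci shared 37 positions. At 11 positions 2 loci reached 5 FPKM, and at 4 of these both changed, at 3 one of the 2 changed. Opposite directions at 1 position occurred at 23904351 to 24095931, a span of 191581 bp. There 1 locus was lower in opaque2, with 50.1 against 161 FPKM, while the other had 12.1 FPKM in wild type and 88.0 FPKM in opaque2 (log2 ratio 2.76). Together they had 173 FPKM in wild type and 138 FPKM in opaque2 (−0.33), well within 2-fold. At 19669523 to 19670484 a locus was lower in opaque2, with 27.9 against 67.9 FPKM (−1.26), while its partner had 61.6 FPKM in opaque2 against 39.2 FPKM in wild type (0.64). Their sum was 89.5 FPKM in opaque2 against 107 FPKM in wild type (−0.26). A further locus of the same span of 962 bp, at 20425735 to 20426696, had levels close to those of that partner, 62.2 and 40.7 FPKM (0.60). Whether these loci share reads was not tested. The pair at 22387754 to 22389768 was higher in opaque2 in sum, with 619 FPKM in opaque2 against 250.3 FPKM in wild type in sum (1.30). With the loci of each position summed, 25 of 92 positions past the floor changed (27.2%), 18 higher and 7 lower.

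Below the floor, differences between the same 2 libraries were counted as well, as description only. Of the 84 loci with 1 to 5 FPKM in the higher library 18 differed at least 2-fold (21.4%), 11 higher and 7 lower, where 8.91% of all loci of this level did and 9.33% of those in the flanks. In this class 19 loci were under 1 FPKM in wild type and 15 in opaque2. Of these, wild type listed 3 loci at 0 and opaque2 listed 4. Some lower loci lay near each other. A locus at 20417263 to 20417679 and both at 20460374 to 20461103 were listed at 0 in opaque2, with 3.27, 3.90 and 1.12 FPKM in wild type, and a locus at 20534046 to 20534889 had 0.215 FPKM in opaque2 against 4.37 FPKM in wild type. Between them lay a locus past the floor with the other direction, at 20425735 to 20426696 (log2 ratio 0.60). The high locus at 20427220 to 20427329, also past the floor and between them, was lower in opaque2 (−0.54). A further one, at 20477433 to 20480649, had 0.166 against 0.0169 FPKM (0.20). At another spot the direction was the opposite. At 28337794 to 28338946 opaque2 had 4.31 FPKM and wild type 0.374 FPKM, at 28342948 to 28345069 it was 1.58 and 0.0208 FPKM, and at 28353640 to 28354706 it was 3.99 and 1.13 FPKM. Among them a locus past the floor, at 28350841 to 28352354, had 7.24 and 5.88 FPKM (log2 ratio 0.26), so neighbours did not all move together. These loci were picked after their values were seen.

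Loci listed at 0 were more frequent in wild type than in opaque2. In wild type 54 of 329 loci were at 0 (16.4%), and in opaque2 11 were (3.34%). Over all loci the shares were 11.1% and 3.14%, in the same order. In the flanks wild type had 9.82% at 0 to 15 Mb and 15.1% at 30 to 45 Mb. Most of these loci were low in the other library too, as 48 of the 54 loci at 0 in wild type were under 1 FPKM in opaque2. Because depth is unknown, a difference at these levels cannot be told from a difference in what the libraries could detect.

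In sum over all 329 loci, opaque2 had 4316 FPKM and wild type 3566 FPKM, 1.21-fold higher (log2 ratio 0.28). Its single highest locus made up 17.1% of that level in opaque2 and 10.7% in wild type. Without it the sums were 3576 and 3184 FPKM (0.17). In the flanks the log2 ratio of the sums was 0.11 at 0 to 15 Mb and 0.03 at 30 to 45 Mb, and over the 14 other stretches of 15 Mb it ran from −1.35 to 0.61, with 3 of them farther from 0. The 20 higher loci summed to 1165 FPKM in opaque2 against 342 FPKM in wild type, and the 10 lower loci to 175 and 618 FPKM. Across the 98 loci past the floor, levels on the log2(FPKM + 1) scale in the 2 genotypes had a Pearson correlation of 0.74, against 0.84 at 0 to 15 Mb over 190 loci and 0.93 at 30 to 45 Mb over 103 loci. Over all loci it was 0.79, and in the 14 other stretches of 15 Mb it ran from 0.40 to 0.96, lower than here in 3 of them. These correlations are across loci of the same 2 libraries, where loci are not independent replicates, and they have no test.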

How the data were processed

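The authors deposited 1 FPKM value per locus and genotype, per the file headers. Bowtie 0.12.2 is named in the submitters' processing notes. The sources used here give neither its role nor the FPKM program, build or annotation. The same 44119 loci are in both tables. Starts as deposited were taken to count from 0, so 1 was added to each start printed. Of 84 mitochondrial loci, 48 match a start of the RefSeq table of assembly Zm-B73-REFERENCE-NAM-5.0 once 1 is added and 0 match otherwise. Of 31 chloroplast loci, 14 match once 1 is added and 1 matches as deposited.

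Log2 ratios of opaque2 over wild type were computed on FPKM + 1, a pseudocount of 1, for all loci, and those of the stretch are reported. With 1 value per locus and genotype no test was made and no interval is reported, since depth is unknown. Exact binomial 95% intervals of the shares in the stretch and flanks served only to mark which alternatives moved a share. They treat loci as independent, which loci of the same libraries are not. Named loci are all that changed, the 5 highest, those next to a threshold or an end, and neighbours that changed. Others were chosen after their values were seen. Members, lists and rules were chosen with earlier results of these data known. Alternatives were other pseudocounts, floors, fold rules and scalings, filters on span and on values of 0, and summed positions. Endosperm markers and gene lists were not analysed for want of names. Scripts ran in Python 3.11.15 with pandas 2.3.3, NumPy 2.4.6, Matplotlib 3.10.9 and SciPy 1.17.1.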

Additional observations from a re-analysis of the deposited data

How the results depend on the processing

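The share of changed loci stayed 2.25 to 7.12 times that of the flanks over the 14 alternatives run, against 3.90 as reported, and this contrast chose the stretch. With a pseudocount of 5 the share was 20.4% against 3.75% in the flanks, with 4 loci lower. A floor of 1 FPKM gave 31 higher and 17 lower, and no floor gave the same counts in a share of 14.6%. At 20 FPKM there were 10 higher and 5 lower. The 1.5-fold rule gave 46.9% against 20.8%, with 33 higher, and the 4-fold rule 12.2% against 2.39%, with 11 higher and 1 lower. A floor of 5 FPKM in both libraries, chosen after seeing the data, gave 20.5% against 2.88%, with 10 higher and 6 lower. Of the changed loci, higher ones made up 66.7%, and 80.0% at a pseudocount of 5 and 91.7% at 4-fold. At 4-fold, 6 of 7 changed loci in the flanks and 322 of 511 over all loci were higher as well. Equal totals, centring, spans of 300 bp or more, values above 0 in both libraries, summed positions and, chosen after seeing the data, a floor of 5 FPKM in the mean kept all counts within 1.5 times. Wherever run, the signed median ran from 0.07 to 0.13 and the log2 ratio of sums from 0.17 to 0.28. The median size ran from 0.38 to 0.56 in the stretch and from 0.22 to 0.30 in the flanks. All moved by less than 1.5-fold, but on the log2 scale that limit is larger than the values themselves. It therefore does not show them to be stable. Of 33 loci named by level or change, 10 moved by over 1.5-fold with the pseudocount. No changed locus turned its direction, but these settings could not have turned one. A pseudocount keeps the direction of a ratio, and the scalings shifted all ratios by far less than 2-fold. The directions were therefore not tested. No paired analysis was possible because there is 1 value per locus and genotype. The limit that depth sets at low levels could not be measured from FPKM alone.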
